A study of Mus musculus with 23 samples.

Results

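Chemokines are small secreted proteins that attract and position cells, and chemokine receptors are the G protein-coupled receptors that read them. In the array values of the hippocampus they were chosen by name. A probe set, the group of short probes that gives 1 signal per transcript, was a member if any of its platform gene symbols began with Ccl, Cxcl, Ccr or Cxcr followed by a digit, or was Cx3cl1 or Xcl1. Of 12422 non-control probe sets 46 were members, of which 42 carried 1 symbol and stood for 37 genes and 4 carried several symbols. If only the start of the annotation is read, 43 qualify. Of the 46 members 11 (23.9%) lay above the 40th percentile of mean log2 signal, a signal of 91.7, and 35 lay below it. No probe set of a receptor was among the 11.

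The samples were whole hippocampi of male C57BL/6JNIA mice, 14 aged 15 months and 9 aged 2 months, 1 array per mouse. No genotype or drug differed between the groups. Mice of both ages had been group-housed and trained in the Morris water maze, a spatial memory task, before they were killed by cervical dislocation. The 2 ages, young and middle-aged, are what the study compared.

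The family is divided by the spacing of conserved cysteines near the amino terminus into CC (Ccl), CXC (Cxcl), C (Xcl) and CX3C (Cx3cl) chemokines, which signal mostly through Gi-coupled receptors. In brain, Cx3cl1 is a membrane-tethered and shed neuronal ligand read by microglia, and Cxcl12 guides dentate granule cell precursors through Cxcr4. Many CC and CXC members, such as Ccl2 and Cxcl10, are held low in healthy tissue and induced by cytokines. In whole tissue, fewer cells of a type and less RNA per cell cannot be told apart.

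Several members are neighbours in the genome. In the RefSeq gene order of the assembly GRCm38.p6, Ccl22, Cx3cl1 and Ccl17 are 3 consecutive protein-coding genes. Their promoter windows, 250 bases before to 50 after the annotated start (RefSeq, GRCm38.p6), are shown as those of 3 neighbouring members. No difference between the 3 genes across the mice was tested. Capitals mark TATAAA and GGGCGG, searched on both strands. The window of Ccl22 is chr8:94745434-94745733, that of Cx3cl1 chr8:94771930-94772229 and that of Ccl17 chr8:94810203-94810502, all on the plus strand.
Ccl22: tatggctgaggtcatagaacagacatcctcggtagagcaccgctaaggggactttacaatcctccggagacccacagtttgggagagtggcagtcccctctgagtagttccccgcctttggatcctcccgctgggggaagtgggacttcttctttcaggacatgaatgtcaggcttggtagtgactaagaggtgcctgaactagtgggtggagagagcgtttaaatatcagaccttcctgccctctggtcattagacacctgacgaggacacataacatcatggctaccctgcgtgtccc
Cx3cl1: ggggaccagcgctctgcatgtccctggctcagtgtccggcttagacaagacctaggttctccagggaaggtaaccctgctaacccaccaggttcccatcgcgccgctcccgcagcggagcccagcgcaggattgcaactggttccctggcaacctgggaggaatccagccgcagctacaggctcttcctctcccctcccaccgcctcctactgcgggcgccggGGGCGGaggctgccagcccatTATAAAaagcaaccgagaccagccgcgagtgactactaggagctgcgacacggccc
Ccl17: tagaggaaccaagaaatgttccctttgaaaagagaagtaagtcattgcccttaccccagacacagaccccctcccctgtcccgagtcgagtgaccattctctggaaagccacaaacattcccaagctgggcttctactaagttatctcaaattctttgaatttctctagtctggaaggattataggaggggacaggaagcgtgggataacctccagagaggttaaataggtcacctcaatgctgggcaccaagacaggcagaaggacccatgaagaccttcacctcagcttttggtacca
The window of Cx3cl1 held 1 TATAAA and 1 GGGCGG, with 19 CpG dinucleotides and a GC content of 64.7%. Those of Ccl22 (8 CpG, GC content 53.3%) and Ccl17 (3 CpG, GC content 48.0%) held neither motif, and none of the 3 windows held the NF-kappaB consensus. Of the 37 genes with a probe set of their own 29 had an entry in the promoter table, with 31 windows. TATAAA was in 9 of these 31 (29.0%), against 13.6% of all 32851 windows of the same length. GGGCGG was in 5 (16.1%, against 35.7%), and the NF-kappaB consensus, searched on both strands, in 8 (25.8%, against 8.46%). The 31 windows had a median GC content of 48.0%, against 52.7% of all windows, and a median of 3 CpG, against 7. The shares were not adjusted for this base composition, so they are not read as a trait of chemokine promoters. No base of the 3 printed windows lay in more than 1 motif. A match is a description of letters and does not show a binding site.

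Signals were MAS5 values on a linear scale, and the signal of a probe set cannot be set against that of another as an amount of transcript. Array medians ran from 155 to 188. Replicate 13 of the 15-month mice differed from the other arrays: its correlation with them had a median of 0.947, the lowest of the 23, and its 25th percentile of 53.6 was the highest. It gave the highest value in 8 of the 35 members below the filter (22.9%) and in 31.6% of all 4969 probe sets below it. For the dim members with an unadjusted p under 0.05, or whose highest value came from this array and is named, the difference without it is given too. Of 12 hippocampal neuron markers on the array 10 lay above the filter, Neurod2 and Wfs1 among them, while Prox1, a marker of dentate granule cells, lay below it at 88.4 ± 28.6 (SD, n = 14) and 92.7 ± 37.1 (SD, n = 9).

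None of the 11 chemokine probe sets above the filter passed the test between the ages. The lowest adjusted p in limma, fitted on all 7453 probe sets above the filter with Benjamini-Hochberg adjustment, was 0.289. At an unadjusted p under 0.05 there were 2 of the 11, Cx3cl1 and a shared Ccl21 probe set. Over all probe sets tested 0.376% were called, 0.335% as higher and 0.0403% as lower at 15 months, and 12.4% had an unadjusted p under 0.05. The median log2 change of the 11 was 0.05, 15 months minus 2 months, against -0.016 for all tested, with 7 above 0 and 4 below. Without each mouse in turn, and under 13 other settings, which include the Mann-Whitney test, the count of members called stayed at 0.

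**Figure D1:**
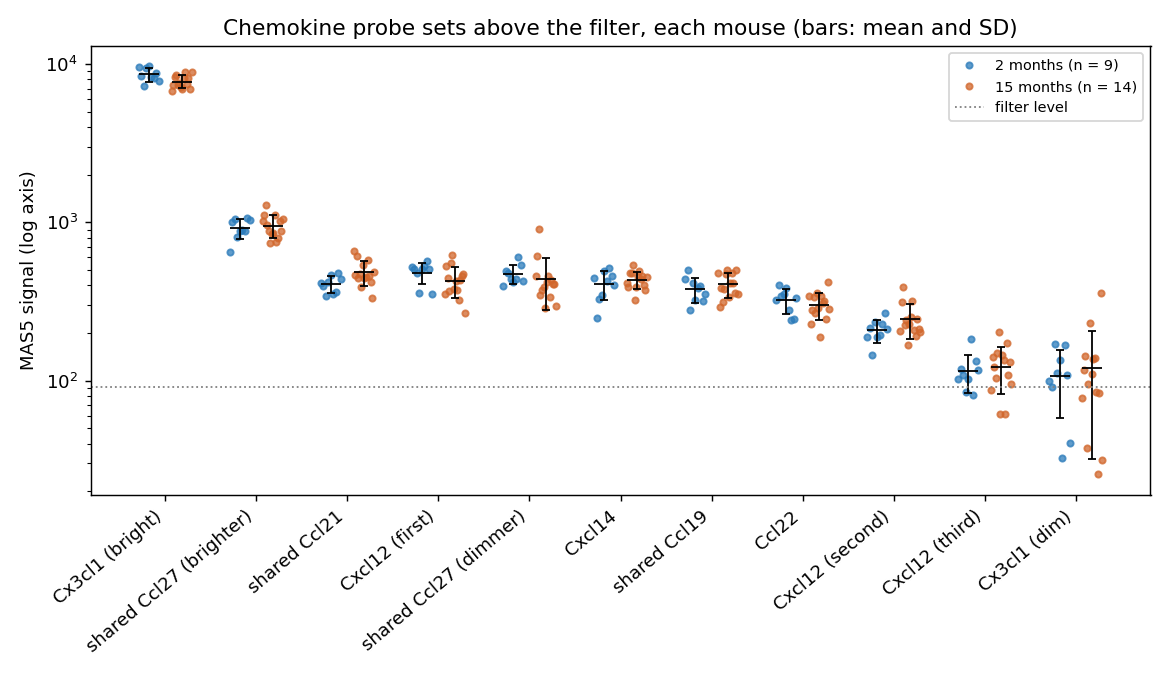
MAS5 signal (log axis) of each mouse for the 11 chemokine probe sets above the filter, 2-month mice in blue (n = 9) and 15-month mice in orange (n = 14), with mean and SD as bars and the filter level of 91.7 as a dotted line. The ages overlap in every probe set, and the bright Cx3cl1 probe set sits at 6806 to 9681.

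Cx3cl1, the neuronal ligand of the microglial receptor Cx3cr1, gave the brightest of these probe sets, at the 99th percentile of mean log2 signal. At 15 months its signal was 6806 at the lowest, 7563 at the median and 8905 at the highest, and at 2 months it was 7286, 8351 and 9681. The 4 lowest mice were all of 15 months (replicates 1, 8, 13 and 7, at 6806 to 7149), the 3 highest all of 2 months (replicates 4, 1 and 5, at 9460 to 9681), and the rest overlapped. The means were 7758 ± 716 (SD, n = 14) and 8606 ± 845 (SD, n = 9). The log2 difference was -0.15 ± 0.06 (SE; 95% interval -0.27 to -0.03), with 2 of 14 mice of 15 months above the 2-month mean, and it did not pass (limma adjusted p = 0.289). Over the alternatives it stayed between -0.18 and -0.13, with adjusted p from 0.147 to 0.519. The SD was 9.22% of the mean at 15 months, the lowest such share of the 46 members at that age.

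A dimmer probe set of Cx3cl1, whose suffix marks a probe set built with relaxed rules, ran at 25.6 to 358 at 15 months (median 102) and at 32.3 to 172 at 2 months (median 108). Its log2 difference was 0.03 ± 0.32, with an interval of -0.62 to 0.68 that holds the value of the bright probe set. The highest value, 358, was that of 15-month replicate 13, and without it the difference was -0.11. No correlation of the 2 probe sets across mice passed the test (Pearson r = -0.21, permutation p = 0.342; Spearman rho = -0.24, permutation p = 0.270; adjusted p = 0.992 and 0.854 over 180 relations; n = 23). Within ages r was -0.41 at 15 months (permutation p = 0.141) and 0.12 at 2 months (exact permutation p = 0.75), and without the 2 mice farthest from the median it was -0.32.

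The receptor Cx3cr1, left out of the members by the rule and a marker of microglia, had means of 261 ± 50.4 in the older and 258 ± 44.9 in the younger mice, which differ by 0.01 ± 0.11 on the log2 scale (limma adjusted p = 0.990). Of 14 markers of microglia and macrophages above the filter 5 rose at 15 months (Ctss, Ly86, Mpeg1, C1qb and C1qc) and 0 fell, against 0.376% of all probe sets called. The median log2 change of the 14 was 0.25, and Csf1r and Cd68 had values of 0.01 and 0.02. The summed signal of the 19 on the array was 11016 to 13374 at 15 months and 8457 to 10818 at 2 months. The part of these cells in any chemokine value was not tested.

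Ccl21, the ligand of Ccr7 that guides T cells and dendritic cells in lymphoid tissue, has several near-identical gene copies in mouse. Their shared probe set carried several symbols and is not assigned to any copy. Its signal was 331 at the lowest, 461 at the median and 657 at the highest at 15 months, and 342, 416 and 476 at 2 months. The 5 highest mice were of 15 months, and so was the lowest, replicate 13. The log2 difference was 0.22 ± 0.09 (95% interval 0.03 to 0.41; 12 of 14 mice above the 2-month mean), and it did not pass (limma adjusted p = 0.334, or 0.202 without replicate 13). Ccr7 itself was below the filter at 14.5 ± 15.1 and 19.1 ± 12.8.

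Ccl19, the other ligand of Ccr7, was also measured by a probe set shared with several annotated copies. It was at 293 to 502 (median 399) at 15 months and 280 to 500 (median 384) at 2 months, so the ages overlapped almost wholly. On the log2 scale the ages differed by 0.10 ± 0.10 (95% interval -0.12 to 0.31).

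Ccl27, a chemokine known mainly from skin that binds Ccr10, was represented by 2 probe sets that share the same several symbols. The brighter was at 741 to 1296 (median 920) at 15 months and 654 to 1065 (median 889) at 2 months, a log2 difference of 0.05 ± 0.09 (95% interval -0.14 to 0.24). The dimmer was at 288 to 906 (median 406) and 396 to 602 (median 438), a difference of -0.15 ± 0.14 (95% interval -0.43 to 0.13). In both, 15-month replicate 3 was the highest of all mice, at 1296 and 906. Across the 23 mice the 2 probe sets had a positive correlation (Pearson r = 0.54, permutation p = 0.00833; Spearman rho = 0.57, permutation p = 0.00503), which did not pass over 180 relations (adjusted p = 0.359 and 0.302). Within ages r was 0.64 at 15 months (permutation p = 0.0120) and 0.49 at 2 months (exact permutation p = 0.185), and it was 0.37 without the 2 mice farthest from the median, so that part of the relation rests on those mice.

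Ccl22, a ligand of Ccr4 made by dendritic cells and macrophages, lies next to Cx3cl1. Its signal was 188 to 422 (median 299) at 15 months and 243 to 403 (median 330) at 2 months. On the log2 scale the difference was -0.10 ± 0.11 (95% interval -0.33 to 0.13; limma adjusted p = 0.754). Replicate 13 was again the highest mouse, at 422, and without it the difference was -0.14.

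Cxcl14, a chemokine expressed by interneurons in the forebrain, was at 324 to 535 (median 445) at 15 months and 250 to 511 (median 426) at 2 months. The means were 434 ± 55.1 (SD, n = 14) and 407 ± 84.5 (SD, n = 9), with the lowest mouse, at 250, among the 2-month ones. The log2 difference was 0.11 ± 0.10 (95% interval -0.10 to 0.32), with 9 of 14 mice above the 2-month mean.

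Cxcl12, the homeostatic chemokine of meninges, vessels and dentate gyrus, had 3 probe sets above the filter that did not give the same direction. The first and brightest was at 266 to 622 (median 428) at 15 months and 354 to 571 (median 507) at 2 months, with means of 428 ± 95.2 and 481 ± 75.7. Its log2 difference was -0.18 ± 0.12 (95% interval -0.42 to 0.06; 3 of 14 mice above the 2-month mean; limma adjusted p = 0.538).

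The second was at 169 to 391.6 (median 226) at 15 months and 144 to 268 (median 211) at 2 months, with 3 of the 15-month mice, replicates 2, 3 and 9, above every 2-month mouse. Its log2 difference was 0.20 ± 0.12 (95% interval -0.04 to 0.44; 10 of 14 mice above the 2-month mean; limma adjusted p = 0.507). The third, whose suffix marks probes that can match other sequences, was at 61.2 to 202 and 80.8 to 182, with a difference of 0.06 ± 0.16.

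Within each array the second minus the first probe set was -0.77 ± 0.42 (SD, n = 14) on the log2 scale at 15 months and -1.15 ± 0.36 (SD, n = 9) at 2 months. The shift of 0.38 ± 0.16 (SE) had an exact two-sided permutation p of 0.0374 over all 817190 regroupings, and an adjusted p of 0.112 over the 3 pairs. In 13 of 14 mice of 15 months the second minus the first was above the 2-month mean. The ranges overlapped, at -1.79 to -0.17 and -1.63 to -0.57. The shift lay between 0.32 and 0.45 without each mouse in turn. These pairs were compared after the values were seen.  No correlation of the first and the second across mice passed the test (Pearson r = -0.08, permutation p = 0.717; Spearman rho = -0.05, permutation p = 0.804; adjusted p = 1 and 0.999; r = 0.08 and -0.13 within the ages, and -0.20 without the 2 farthest mice).

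**Figure D2:**
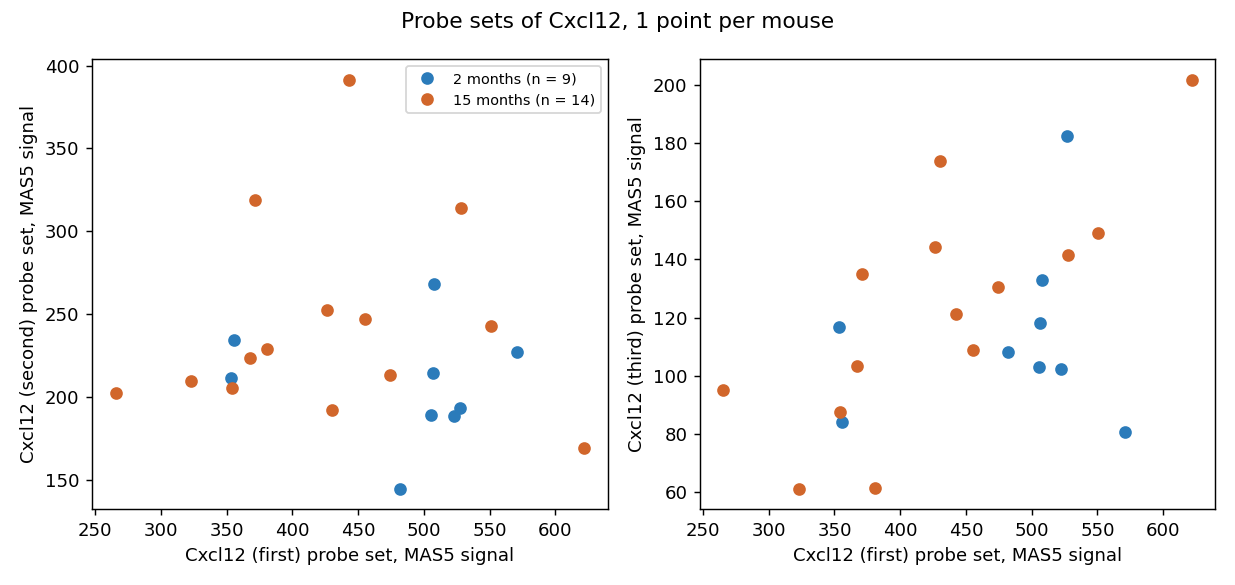
MAS5 signal of the first Cxcl12 probe set (horizontal axis) against the second (left panel) and the third (right panel), 1 point per mouse, 2 months in blue and 15 months in orange. Pearson r is -0.08 in the left panel and 0.53 in the right panel, and neither passed after adjustment.

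The first and the third probe sets of Cxcl12 had Pearson r = 0.53 (permutation p = 0.00965) and Spearman rho = 0.48 (permutation p = 0.0228) over the 23 mice, and r = 0.44 without the 2 farthest. At 15 months r was 0.71 (permutation p = 0.00435) and at 2 months 0.18 (exact permutation p = 0.634), where rho was 0.02 and r without the 2 farthest mice -0.29. None of these passed over the 180 relations (adjusted p = 0.359 for r over all mice and at 15 months).

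The 11 probe sets were also set against the mean log2 level of markers of microglia and macrophages, astrocytes, endothelium, meninges and fibroblasts, and choroid plexus. No relation passed after adjustment over the 180, by Pearson or Spearman. The second Cxcl12 probe set had r = 0.46 (permutation p = 0.0283) and rho = 0.46 (permutation p = 0.0307) with the meningeal markers over 23 mice, with adjusted p = 0.516 and 0.557, and r = 0.50 without the 2 farthest mice. Within ages r was 0.36 at 15 months and 0.54 at 2 months. With the endothelial markers the same probe set had r = 0.46 (permutation p = 0.0303) and rho = 0.53 (permutation p = 0.0107), with adjusted p = 0.516 and 0.388, and r = 0.33 without the 2 farthest mice. Within ages that r was 0.24 at 15 months and 0.73 at 2 months. The dimmer shared Ccl27 probe set had r = -0.51 (permutation p = 0.0108) and rho = -0.59 (permutation p = 0.00351) with the astrocyte markers, with adjusted p = 0.359 and 0.302, and r = -0.66 without the 2 farthest mice. Within ages r was -0.69 at 15 months and 0.31 at 2 months, and without the 2 farthest mice of each age -0.63 and -0.75, so the sign at 2 months rests on 2 of 9 mice. The summed signal of 15 meningeal and fibroblast markers ran from 7603 to 27922 at 15 months and from 9936 to 21525 at 2 months, a wide range within both ages, and the part of this tissue in the Cxcl12 values was not tested.

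The 35 members below the filter were too dim to enter the main test. They were fitted in a limma model of all 12422 non-control probe sets, and none was called (lowest adjusted p = 0.304). Of the 35, 4 had an unadjusted p under 0.05: Ccl6, Cxcl5, Ccl2 and Ccl17. Over all 4969 probe sets below the filter 5.35% had such a p and 0% were called. Differences were above 0 in 14 of the 35 and below 0 in 21, with a median of -0.04, while 44.6% of all probe sets below the filter were above 0. In 14 of the 35 at least 1 mouse reached the filter level. Just outside the filter were the first Ccl1 probe set (90.4 ± 42.4 and 104 ± 56.6) and Ccl9 (80.7 ± 21.5 and 79.1 ± 31.1), and just inside it the dim probe set of Cx3cl1 and the third of Cxcl12.

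**Figure D3:**
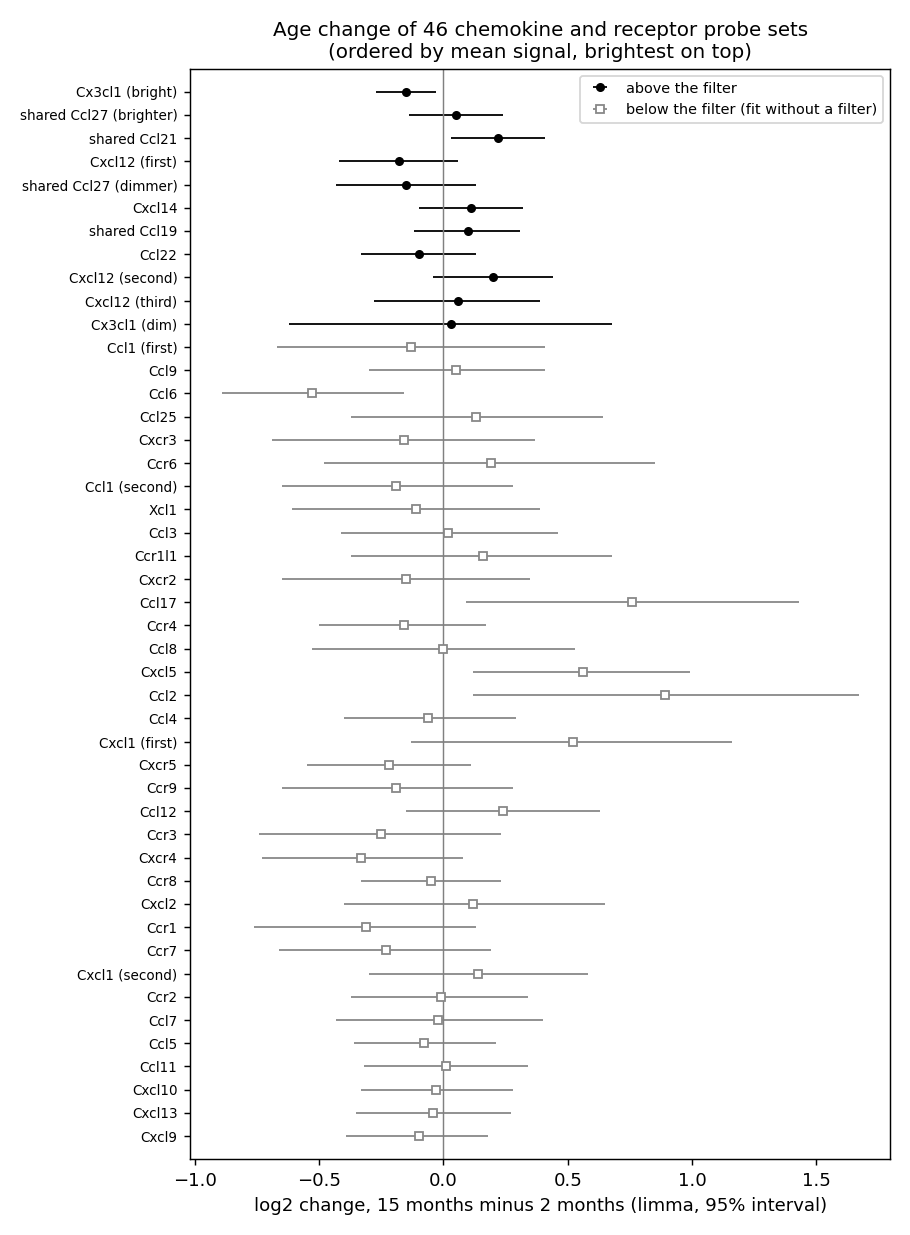
Log2 change, 15 months minus 2 months, with its 95% interval from limma for the 46 members, ordered by mean signal. Filled circles are the 11 above the filter and open squares the 35 below it, fitted without a filter. The intervals of Cx3cl1 (bright), shared Ccl21, Ccl6, Ccl17, Cxcl5 and Ccl2 leave out 0, and none of these passed after adjustment.

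Ccl2, the main attractant of Ccr2-bearing monocytes, was near the floor of the array in every 2-month mouse and in part of the 15-month mice. At 2 months the 9 signals ran from 4.0 to 30.5, with a median of 11.3. At 15 months it was 173 in replicate 14, 147 in replicate 6, 121 in replicate 1, 113 in replicate 13 and 110 in replicate 11, then 41.0 in replicate 10 and 32.9 in replicate 7. The other 7 mice of that age were at 5.1 to 26.8. So 7 of 14 mice were above every 2-month mouse, 5 of them above the filter level, and 7 lay within the 2-month range.

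The means were 58.2 ± 60.4 (SD, n = 14) and 13.9 ± 8.57 (SD, n = 9), and the log2 difference was 0.89 ± 0.38 (95% interval 0.12 to 1.67). It did not pass (limma adjusted p = 0.444 over 12422 probe sets; over the alternatives the difference was 0.50 to 1.28 and this p 0.195 to 0.650). Without replicate 13, the array that stood apart, it was 0.80 (adjusted p = 0.446). Of the 4969 probe sets below the filter 12 (0.241%) had at least 5 mice of 15 months and no mouse of 2 months above the filter level, a count made after the values of Ccl2 were seen.

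Ccl2 is followed in the gene order by Ccl7, Ccl11, Ccl12, Ccl8 and Ccl1, which also attract monocytes or eosinophils. None of these neighbours had at least 5 mice of 15 months and no mouse of 2 months above the filter level. That criterion was taken from the values of Ccl2, and 0.241% of all probe sets below the filter met it. Its absence in a few neighbours is therefore not read as a contrast with Ccl2. Ccl7 was at 13.4 ± 12.8 at 15 months and 13.5 ± 11.5 at 2 months, with a highest value of 53.2, in 15-month replicate 11. Ccl11 was at 11 ± 7.82 and 11.4 ± 11.4, Ccl12 at 27.9 ± 15.1 and 20.7 ± 10.8, and Ccl8 at 31.0 ± 19.3 and 36.1 ± 39.7. The highest mouse in Ccl8, at 135, was 2-month replicate 4. Ccr2, the receptor of Ccl2, was at 14.0 ± 10.3 and 13.5 ± 6.90, below the filter level in all mice.

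Ccl17, a ligand of Ccr4 made by dendritic cells, was high in a few mice of 15 months. It was 272 in replicate 1, 152 in replicate 14, 91.9 in replicate 10 and 85.8 in replicate 12, and 12.6 to 43.2 in the other 10. The 2-month mice were at 12.1 to 41.6. The means were 60.0 ± 73.1 and 18.5 ± 9.18, and the log2 difference was 0.76 ± 0.33 (95% interval 0.09 to 1.43; limma adjusted p = 0.452; 11 of 14 mice above the 2-month mean), and 0.42 to 1.07 over the alternatives (0.79 without replicate 13). The bright probe set of the neighbouring gene Cx3cl1 was at its lowest, 6806, in replicate 1, and at its highest for that age, 8905, in replicate 14. Ccl22, on the other side of Cx3cl1, was at 342 in replicate 1, within the 2-month range.

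Cxcl1, a CXC chemokine that attracts neutrophils through Cxcr2, reached 121 in 15-month replicate 13, 86.7 in replicate 14 and 74.4 in replicate 11 in its first probe set. The other mice of both ages were at 3.9 to 60.0. The log2 difference was 0.52 ± 0.31 (95% interval -0.13 to 1.16), or 0.40 without replicate 13, and the second probe set, at 3.9 to 50.3 and 2.1 to 52.6, had one of 0.14. Replicate 14 was thus among the highest mice in Ccl2, Ccl17 and Cxcl1.

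Cxcl5, another neutrophil attractant, was at 8.0 to 57.2 (median 39.0) at 15 months and 6.8 to 52.1 (median 12.4) at 2 months. Of the 14 older mice 12 were above the 2-month mean, but the highest 2-month mice, replicates 9 and 7 at 52.1 and 40.3, reached into the 15-month range. The log2 difference was 0.56 ± 0.21 (95% interval 0.12 to 0.99; limma adjusted p = 0.376), and 0.24 to 0.99 over the alternatives. Replicate 13 was the highest mouse, and without it the difference was 0.51 (limma adjusted p = 0.372). No mouse reached the filter level. Cxcl2, of the same group, was at 23.2 ± 21.8 and 20 ± 17.3. Among neutrophil markers 4 of 10 lay above the filter, with 0 called and a median log2 change of -0.13 for the 4. Camp, 1 of the 4, was lower at 15 months, at 87 ± 28.6 and 129 ± 38.4 (-0.48 ± 0.17, limma adjusted p = 0.247). It alone of the 4 had an unadjusted p under 0.05, and 0 of the 4 had a change above 0. Below the filter, outside the main test, S100a9 was at 27.3 ± 14.8 and 12 ± 6.36, and Ltf at 67.3 ± 26 and 31.7 ± 18.4. S100a8 and Mmp9 also had higher means at 15 months, while Ngp and Mpo had lower ones. The summed signal of the 10 was 967 to 1888 at 15 months and 1231 to 1968 at 2 months. Csf3r gave the largest part of it, at 735 ± 165 and 853 ± 198.

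Ccl6, a CC chemokine of rodent myeloid cells, was the member of lowest p below the filter, and its difference was downward. It was at 22.4 to 94.8 (median 60.4) at 15 months and at 51.8 to 118 (median 102) at 2 months. Of the 14 older mice 5 were below every 2-month mouse and 1 was above the 2-month mean, while 5 of the 9 young mice and 1 of the older ones were above the filter level. The means were 62.3 ± 22.3 and 94.4 ± 23.2, and the log2 difference was -0.53 ± 0.18 (95% interval -0.89 to -0.16; limma adjusted p = 0.304). The lowest value was that of replicate 13, and without it the difference was -0.45 (adjusted p = 0.309). Ccl9, its neighbour in the gene order, was at 80.7 ± 21.5 and 79.1 ± 31.1, a log2 difference of 0.05 ± 0.17.

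**Figure D4:**
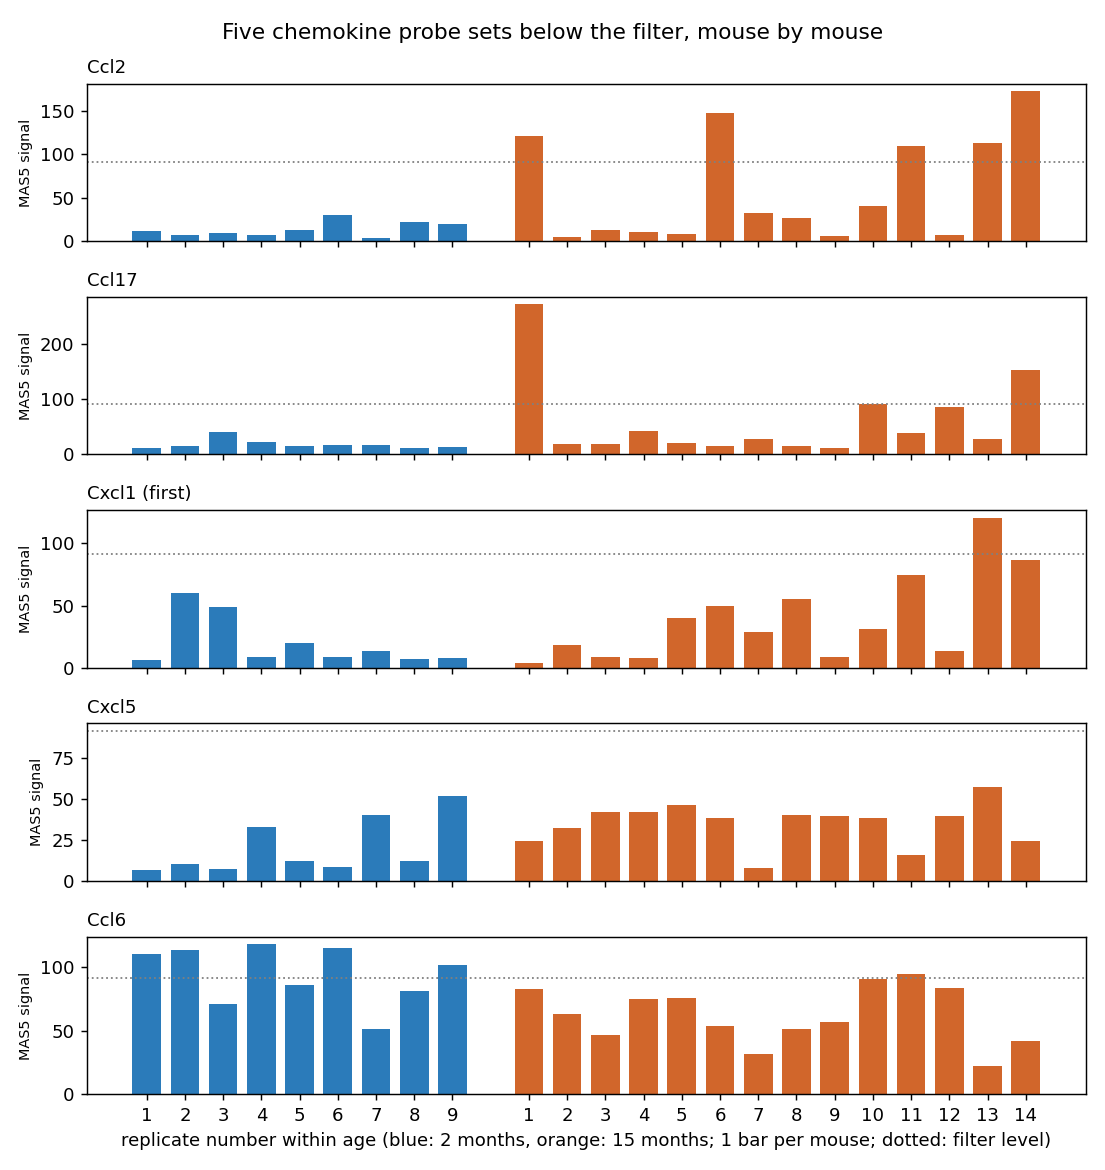
MAS5 signal of Ccl2, Ccl17, the first Cxcl1 probe set, Cxcl5 and Ccl6, 1 bar per mouse by replicate number, 2 months in blue and 15 months in orange, with the filter level of 91.7 dotted. Ccl2 passes that level in 15-month replicates 1, 6, 11, 13 and 14 and in no 2-month mouse, and Ccl6 is mostly lower at 15 months.

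At 15 months Ccl6, Cxcl5, Ccl2 and Ccl17 were compared with 12 marker lists and with the 25th percentile of the array, 52 relations chosen after the values were seen. None passed after adjustment. Ccl6 had r = 0.62 (permutation p = 0.0175) and rho = 0.53 (permutation p = 0.0512) with the microglia and macrophage markers, with adjusted p = 0.584 and 0.888, and r = 0.54 without the 2 farthest mice. Ccl2 had r = 0.55 (permutation p = 0.0225) and rho = 0.58 (permutation p = 0.0327) with the 25th percentile, a measure of low-end signal, with adjusted p = 0.584 and 0.850, and r = 0.50 without the 2 farthest mice. With that percentile in the model the log2 difference of Ccl2 was 1.07 and that of Ccl6 was -0.58.

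Other inducible chemokines, among them the T cell attractants Cxcl9, Cxcl10 and Ccl5 and the B cell attractant Cxcl13, were dim at both ages. Cxcl9, Cxcl10 and Cxcl13 were at 6.14 to 10.5 at 15 months and 7.63 to 11 at 2 months as group means. Ccl5 was at 10.2 ± 5.70 and 11.8 ± 7.38, Ccl3 at 50.1 ± 21.2 and 47.8 ± 16.9, and Ccl4 at 26.2 ± 10.3 and 28.2 ± 14.3. None of these reached the filter level in any mouse. The T cell markers Cd3d, Cd3e, Cd3g, Cd8a and Cd8b1 were below the filter too, and of 12 T and NK cell markers on the array 1, Cd4, lay above it. Their summed signal was 234 to 514 at 15 months and 290 to 540 at 2 months.

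The lymphocyte attractants Xcl1 and Ccl25 were each high in replicate 13, at 130 and 196. Xcl1 was at 53.7 ± 31.1 and 57.0 ± 24.1, and Ccl25 at 72.3 ± 41.4 and 64.6 ± 30.2. Their log2 differences were -0.11 and 0.13, and without replicate 13 -0.20 and 0.03. The 2 probe sets of Ccl1 had log2 differences of -0.13 and -0.19, with intervals that include 0.

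All 13 receptor probe sets, 9 of CC and 4 of CXC receptors, lay below the filter. Group means were 14.0 to 66.9 at 15 months and 13.5 to 62.7 at 2 months, and 4 of the 13 passed the filter level in at least 1 mouse. Log2 differences were below 0 in 11 of the 13 and above 0 in 2, while 44.6% of all probe sets below the filter were above 0. Some of the 11 were close to 0, such as Ccr2 (-0.01) and Ccr8 (-0.05), and no receptor had an unadjusted p under 0.05. Cxcr4, the receptor of Cxcl12, was at 19.8 ± 10.2 and 28.9 ± 13.1, with 2.3 to 34.2 (median 18.5) at 15 months and 6.4 to 46.9 (median 29.6) at 2 months. Its log2 difference was -0.33 (limma adjusted p = 0.627).

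Cxcr2, the receptor of Cxcl1 and Cxcl5, was at 36.0 ± 29.4 and 37.8 ± 16.1, and its highest value, 123, was that of replicate 13. Its log2 difference was -0.15, and without that array -0.27. Cxcr3, the receptor of Cxcl9 and Cxcl10, was at 57.6 ± 33.2 and 62.7 ± 29.8. Ccr1 was at 15.8 ± 12.4 and 23.7 ± 16.1, and Ccr4, the receptor of Ccl17 and Ccl22, at 29.1 ± 10.2 and 35.0 ± 14.0. Ccr6 ran from 22.1 to 130 at 15 months and from 19.9 to 144 at 2 months, with no separation of the ages. These dim signals limit what can be said of a change in a receptor.

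Further genes of the pathway, from lists chosen by textbook role, gave no call. Of 13 other chemokines, receptors and relatives on the array 7 lay above the filter, and 0 rose or fell (median log2 change 0.01, 0 at an unadjusted p under 0.05). Their members of lowest p were Ackr3, the scavenging receptor of Cxcl12 (-0.14 ± 0.09, limma adjusted p = 0.546), Xcr1, the receptor of Xcl1 (0.28 ± 0.20, limma adjusted p = 0.594), and Rarres2, the attractant chemerin (0.30 ± 0.22, limma adjusted p = 0.607). Ackr3 was at 179 ± 25.3 and 200 ± 28.9. Pf4, a platelet chemokine, was below the filter at 28.6 ± 22.9 and 33.5 ± 17.9.

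Of 57 genes of receptor signalling on the array, such as G protein subunits and phosphoinositide kinases, 48 lay above the filter and 0 were called by limma. At an unadjusted p under 0.05 there were 5 of the 48, all lower at 15 months, where 12.4% of all probe sets tested had such a p. Changes were above 0 in 28 of the 48, and the median log2 change was 0.02. Jak3, a cytokine receptor kinase, was at 299 ± 53.4 and 372 ± 52.7 (-0.31 ± 0.10, limma adjusted p = 0.196). Rgs14, a regulator of G protein signalling abundant in CA2, was at 3830 ± 471 and 4304 ± 306 (-0.17 ± 0.06, limma adjusted p = 0.258). Akt2 had a difference of -0.16 ± 0.07 (limma adjusted p = 0.346). None of these passed the test.

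Of 33 genes that induce chemokines or belong to NF-kappaB signalling 23 lay above the filter, with 0 called by limma, 2 at an unadjusted p under 0.05 and a median log2 change of -0.02. The inducing cytokines themselves were dim, with Tnf at 19.6 ± 5.85 and 26.0 ± 17.9, Il1b at 10.3 ± 4.98 and 13.1 ± 4.67, and Ifng at 6.19 ± 4.24 and 6.12 ± 4.69. Ifngr1, a chain of the interferon gamma receptor, was at 118 ± 41.9 and 80 ± 40.8 (0.52 ± 0.23, limma adjusted p = 0.361), and Traf2, an adaptor of tumour necrosis factor receptors, at 487 ± 84.7 and 570 ± 109 (-0.22 ± 0.10, limma adjusted p = 0.378). Nfkbia, the inhibitor that NF-kappaB induces, was at 962 ± 347 and 723 ± 99.8 (0.33 ± 0.16, limma adjusted p = 0.407).

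Of 18 genes that cleave or present chemokines 10 lay above the filter, with 0 called by limma, 1 at an unadjusted p under 0.05 and a median log2 change of 0.08. The heparan sulphate carriers Sdc4 (2056 ± 352 and 1734 ± 317; 0.25 ± 0.10, limma adjusted p = 0.326) and Sdc2 (0.18 ± 0.09, limma adjusted p = 0.439) had the lowest p, followed by Sdc3 (0.22 ± 0.16, limma adjusted p = 0.601).

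**Figure D5:**
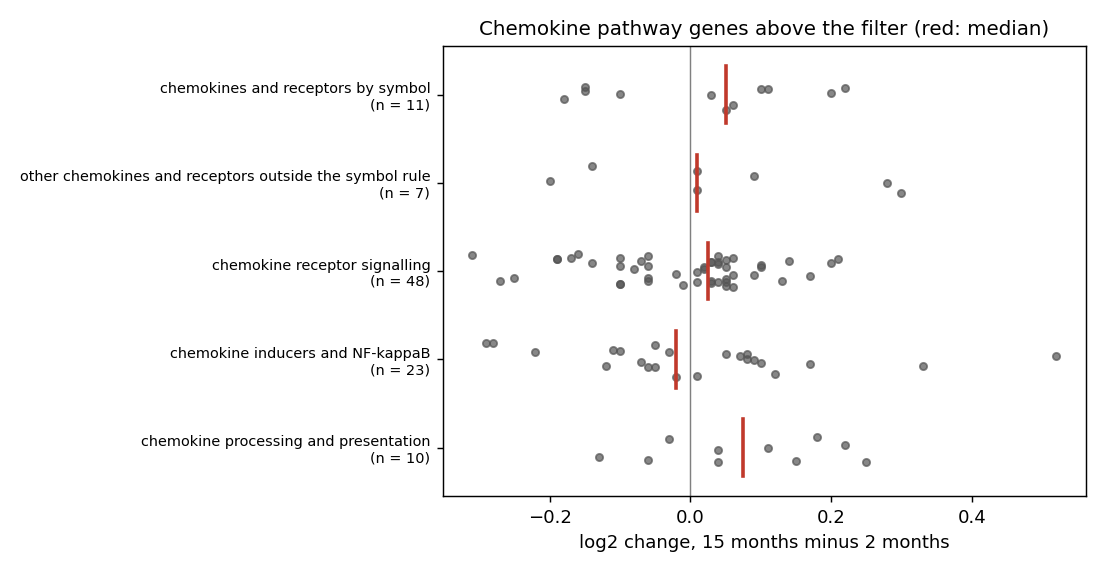
Log2 change, 15 months minus 2 months, of the genes above the filter in 4 pathway lists and of the 11 chemokine probe sets, 1 point each with the median in red. The medians lie between -0.02 and 0.08, and Ifngr1, at 0.52, is the point farthest from 0.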

How the data were processed

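Total RNA of 23 hippocampi was biotin-labelled and hybridised to 1-colour arrays, per the labels' protocols. The authors deposited linear intensities, for which the submitters' processing notes name MAS5, and for its version and settings the sources used here give nothing. Every array had the same mean after trimming 2% at each end (500.3), so no further normalisation was done. Precision is limited by the number of arrays.

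Symbols came from the platform annotation (10833 with 1 symbol, 396 with several, 1193 with none; 66 controls left out). Values were analysed as log2(signal + 16), which understates changes of dim genes. Probe sets above the 40th percentile of mean log2 signal were compared with limma 3.58.1 in R 4.3.3 (trend, robust, two-sided, Benjamini-Hochberg, false discovery rate 0.05), with 14 mice against 9 and no covariate. Members below the filter were fitted in all 12422. Pathway and marker genes stood for their brightest probe set with 1 symbol. Correlations used 100000 permutations, or exact ones at 2 months, with numpy 2.4.6 and scipy 1.17.1 in Python 3.11.15. Replicate numbers follow the sample order, only name mice and pair none. The labels call the mice biological replicates and give no batch.

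Members above the filter were described in full. Of those below it, the ones with an unadjusted p under 0.05, the brightest 5 or those with a mouse above the filter were given by name or count. From each pathway list the called genes, or else the 3 of lowest p, were named. Values of other members and list genes were given after they were seen. The members, lists and settings were chosen with earlier results of these data known. On simulated data with the 7453 probe sets limma called 22% of those shifted by 0.25, 84% at 0.5, 86% at 0.75, 100% at 1, and 4 of 7253 unshifted ones. The fit of every dim member without 15-month replicate 13 was chosen after seeing the data. Alternatives covered the pseudocount (1 or 64), the filter, scaling, the test, array weights, covariates and leaving out mice.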

Additional observations from a re-analysis of the deposited data

Results flagged for a closer look

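In the group of 9 mice of 2 months the highest mouse stood apart from the rest in 6 of 46 members on the log2 scale. The cutoff is set for about 1 in 20 in normally distributed values, which dim signals need not be. The share over all probe sets below the filter was not counted, so the 6 are not read as particular to chemokines. The older mice were not searched in this way, so the 6 are not read as particular to the younger age either. All 6 were below the filter, and the gap is given as a share of the group's range. Ccl11 had 41.6 in replicate 2 against at most 9.7 in the others (gap 0.835). Ccl4 had 63.6 in replicate 7 against at most 32.7 (gap 0.576), and Ccl17 had 41.6 in replicate 3 against at most 22.4 (gap 0.565). In replicate 6 Ccl5 had 30.0 against at most 14.2 (gap 0.547) and the second Cxcl1 probe set 52.6 against at most 19.3 (gap 0.499). Cxcl9 had 21.3 in replicate 9 against at most 10.1 (gap 0.533). Replicate 2 had the highest mean log2 level of choroid plexus markers at 2 months, 10.65, where the next was 8.73. Replicates 6 and 3 gave the highest value in 9.12% and 8.49% of all probe sets below the filter, the largest shares at 2 months. The part of either in these gaps was not tested.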

How the results depend on the processing

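No chemokine or receptor probe set was called under any of 13 other settings or without any 1 of the 23 mice, where the count stayed between 0 and 0. The count of all probe sets called was 28, 25 to 34 under 12 of the settings, 20 to 39 without each mouse, and 60 with the arrays' 25th percentile as a covariate, where the cause was not tested. The count of members at an unadjusted p under 0.05 was 2, 1 with median centring or without 2-month replicate 3, 6 or 7, and 6 without a filter, which tests more members, and 3 without 15-month replicate 3. Of 15 members followed 13 kept their direction and stayed uncalled throughout. The dim Cx3cl1 probe set (0.03) turned to -0.07 by the Mann-Whitney test, -0.03 with array weights and -0.04 with meningeal markers in the model, and ran from -0.13 to 0.14 without each mouse. The brighter shared Ccl27 probe set (0.05) ran from -0.01 to 0.08 without each mouse. The 4 pathway lists had 0 calls also with the mean of a gene's probe sets, with 0, 5, 3 and 1 genes at an unadjusted p under 0.05. No paired analysis was possible because the replicate numbers pair no mice. Shifts of 0.25 were called in 22% of simulated cases, so small changes of these members could be missed. The simulation used independent normal noise and shifted 50 random probe sets above the filter at each size. More were thus shifted than the 28 called here, which eases the adjustment, so 22% may be too high for these members. It covered no member below the filter.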

Other observations

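The 7 mice of highest Ccl2 were also the 7 of highest Sgk1, a kinase gene that glucocorticoids induce. Sgk1 was 2282 to 3277 in 15-month replicates 1, 6, 7, 10, 11, 13 and 14, which had the 7 highest values of the 23 mice, and these were the same mice as the 7 of highest Ccl2 (32.9 to 173). In the other 7 mice of 15 months Sgk1 was 1307 to 1744 and Ccl2 5.1 to 26.8, and in the 2-month mice 779 to 1281 and 4.0 to 30.5. Of the 7 mice of highest Ccl17 4, and of the 7 of highest Cxcl1 also 4, were among them. Sgk1 was picked after the values were seen, and the mice form no group of the study. Of the other 12421 probe sets 9 (0.0725%) had the same 7 highest mice as Ccl2: those of Sgk1, Nfkbia, Mt2, Txnip, Map3k6 and Cdkn1a, 2 of Spsb1, and 1 shared by Ctla2a and Ctla2b. In Ccl2 the cut after 7 mice falls between 32.9 in 15-month replicate 7 and 30.5 in 2-month replicate 6. Both are dim, so the match of all 7 and the count of 9 rest on a small difference. The Sgk1 values leave a gap, so no r over the 14 mice is given. Within the 7 mice of high Sgk1 r was 0.66 (exact permutation p = 0.103; rho = 0.57, exact permutation p = 0.200), and within the other 7 it was 0.01 (exact permutation p = 0.979; rho = 0.39, exact permutation p = 0.396). The 2 sets were cut on Sgk1 after the values were seen, and the same cut separates the 15-month mice by Ccl2. These values therefore cannot test a relation of the 2 genes, and the 2 sets are not compared.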
